A study of Mus musculus with 9 samples.

Results

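The mitosis and spindle checkpoint genes examined here are 40 mouse genes whose products drive entry into mitosis, spindle assembly, chromosome attachment, anaphase and cytokinesis. They were chosen by name, with earlier results of these data known. Each gene was read from its own probe set, or from the one with the highest mean signal where it had several. Of the 40 genes, 39 were measured among 19938 genes in all, and cyclin B1 (Ccnb1) was not analysed here. RNA was measured on whole-transcript arrays in 9 samples, with 3 arrays per group. The groups were mouse embryonic fibroblasts (MEF) below passage 3, the embryonic stem cell line R1 of the mouse, and induced pluripotent stem (iPS) cells, which the labels call inducible, made from MEF. The MEF are labelled as the cells of origin of the iPS cells and R1 is a single line. Agents, strain, age, reprogramming factors and the number of iPS clones are not given in the labels used here. The design text calls the arrays of a line biological repeats without stating whether each was derived on its own. The p-values therefore cover only the variation among these samples.

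All 39 genes had a mean signal above that of the median gene. Their means over the 9 arrays ran from 190.8 for Cdc25b to 2420 for Top2a, and none was under a signal of 50, where 30.1% of all genes lay. The values carry no detection calls, so dim signals and background cannot be told apart. The groups matched their labels, with 8 of 8 pluripotency markers higher and 8 of 8 fibroblast markers lower in both R1 and iPS cells than in MEF. Between the lines, 3 of 8 pluripotency markers were lower in iPS than in R1 cells by adjusted p, of which Zfp42 fell (-2.77) while Esrrb (-0.50) and Utf1 (-0.32) were not called, and 1 of 8 fibroblast markers, Col1a1, was higher (0.67). Summed signals of the fibroblast markers were 29650 to 34520 in MEF, 2041 to 2927 in R1 and 2918 to 3635 in iPS arrays. Skeletal muscle markers were also higher in MEF, with 6 of 6 called and summed signals of 6335 to 7688, against 673 to 757 in R1 and 667 to 859 in iPS arrays. Of 6 macrophage markers 1 was called higher than in MEF in each line (Cd68), and of 6 endothelial markers 1 was called higher (Pecam1) and 1 lower (Emcn). Their summed signals were 241 to 282 and 289 to 348 in MEF, 436 to 458 and 501 to 565 in R1, and 391 to 412 and 410 to 516 in iPS arrays. The lowest value of any probe set was 4, so no gene could read 0. Apart from Cd68, the macrophage markers had means under 50 in every group. The part of other cell types in the results that follow was not tested.

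As background, a cell enters mitosis when cyclin-dependent kinase 1 (Cdk1), bound to an A- or B-type cyclin, is switched on by Cdc25 phosphatases. Kinetochores then attach chromosomes to the spindle, and the spindle assembly checkpoint holds back the anaphase-promoting complex until every chromosome is attached. Once the complex is released with its activator Cdc20, it destroys securin (Pttg1), and the protease separase (Espl1) cuts the cohesin that joins sister chromatids. Most of these genes are transcribed in a wave in the late cell cycle, so their RNA in a culture follows in part how many of its cells are dividing. Pluripotent stem cells are known for a short cell cycle with a brief first gap phase. Bulk arrays cannot tell apart a larger share of cells in mitosis and more RNA per mitotic cell.

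The comparison of each pluripotent line with MEF asks how the mitotic genes differ between fibroblasts and the derived or embryonic stem cells. Most of the 39 genes were higher in both lines, in general by less than 1 log2 unit. A gene was called when its adjusted p was under 0.05 and its difference in log2(signal + 16) was 1 or more, and only called genes are said to have risen or fallen. In iPS cells 3 of 39 genes rose (Espl1, Bub1 and Ect2) and 0 fell, where 5.08% of all genes rose and 7.58% fell. In R1 cells 5 of 39 rose (Pttg1, Espl1, Bub1b, Ttk and Ect2) and 0 fell, where 5.56% of all genes rose and 7.94% fell.

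By the adjusted p alone, without a minimum difference, the list stood further from the background. In iPS cells 26 of 39 genes were higher than in MEF (66.7%), 3 were lower and 10 did not pass, while 24.8% of all genes were higher and 23.2% lower. In R1 cells 31 of 39 were higher (79.5%), 3 were lower and 5 did not pass, while 25.9% of all genes were higher and 23% lower. Among the 13944 genes of mean signal 50 or more, tested by themselves, the shares above and below MEF were 33.7% and 31.3% for iPS cells and 35.3% and 30.9% for R1 cells. The median difference of the 39 genes was 0.37 in iPS and 0.37 in R1 cells, against medians over all genes of 0.02 in both. Both comparisons use the same MEF arrays, so they are not independent of each other. Between iPS and R1 cells the median was -0.05. There 0 genes rose, 1 fell (Pttg1), 1 was higher and 6 were lower by adjusted p alone, where 0.296% of all genes rose, 0.166% fell, 4.12% were higher and 4.4% lower.

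**Figure D1:**
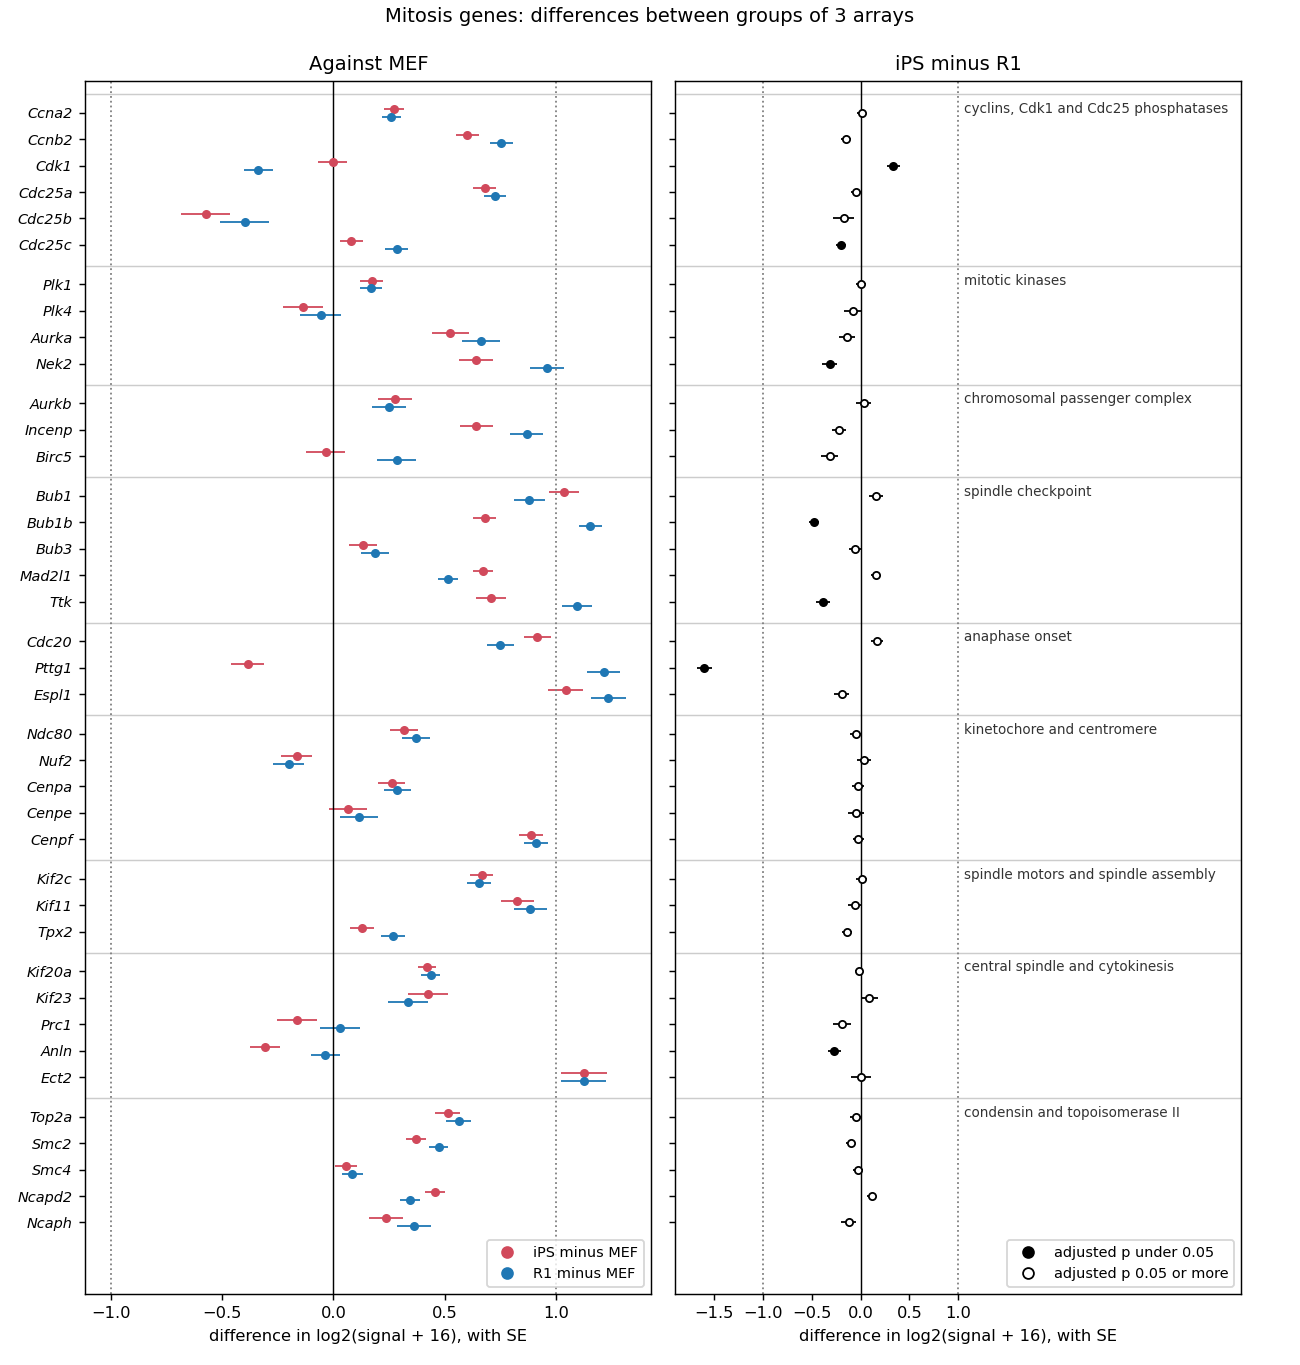
Differences in log2(signal + 16) with the standard error of the fit for 39 mitosis genes, ordered by role, of iPS (red) and R1 (blue) against MEF on the left and of iPS against R1 on the right, 3 arrays per group. Dotted lines mark a difference of 1; most points on the left lie between 0 and 1, and Pttg1 stands apart on the right at -1.60.

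The iPS arrays varied more among themselves in these genes than the other arrays did. The median SD of log2(signal + 16) over the 39 genes was 0.10 in iPS, 0.06 in MEF and 0.04 in R1, and over all genes it was 0.08, 0.07 and 0.07. The deviations were shared by most members. In iPS replicate 1 only 5 of 39 genes lay above their iPS mean, and the members averaged 0.09 log2 units below it. In iPS replicate 3, 36 of 39 lay above, and the average was 0.08 above. Over all genes the average deviations of these arrays were -0.0014 and 0.0032. Members' mean log2 levels were 9.82, 9.92 and 9.99 in iPS replicates 1, 2 and 3, 10.0046 to 10.0324 in R1 and 9.52 to 9.58 in MEF, so that on this scale the iPS range did not reach either other group. Their summed signals were 41810 to 46950 in iPS, 45650 to 46390 in R1 and 32800 to 33850 in MEF, so that by the sum the iPS arrays spanned the R1 range. Members also averaged furthest below their group mean in replicate 1 of MEF (-0.03) and of R1 (-0.02). The summed fibroblast marker signal was highest among iPS arrays in replicate 1 (3635), and among MEF and R1 arrays it was lowest in replicate 1 (29650 and 2041). Its part in the lower mitotic signals of iPS replicate 1 was not tested.

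**Figure D2:**
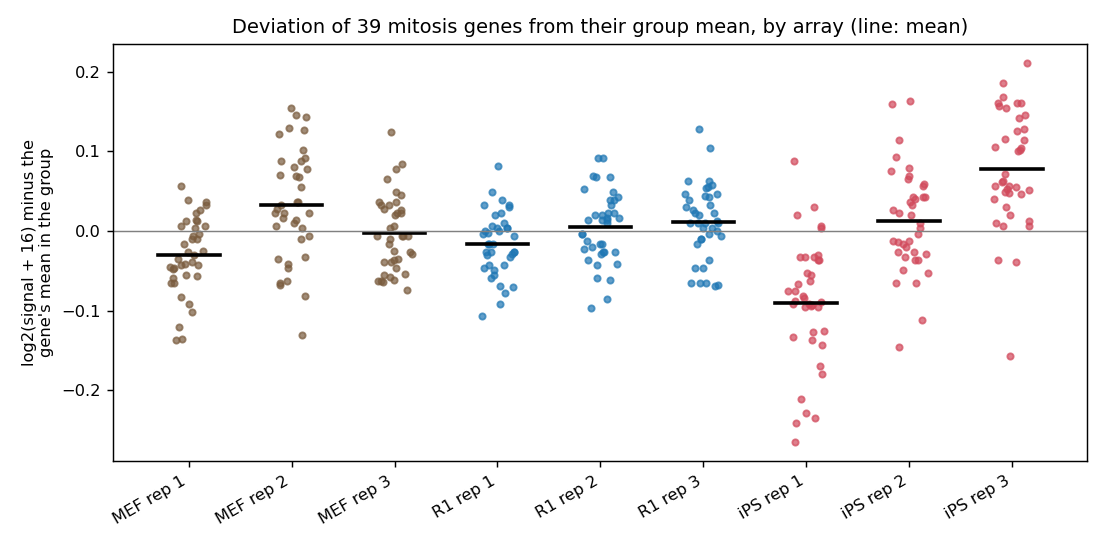
Deviation of each of 39 mitosis genes (dots) from its own group mean in log2(signal + 16), by array; the black lines are means over the genes. The genes sit mostly below 0 in iPS replicate 1 and mostly above 0 in iPS replicate 3, while the means of the MEF and R1 arrays lie between -0.03 and 0.03.

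Promoters of mitotic genes often carry a cell cycle genes homology region (CHR), which MuvB complexes bind, and CCAAT boxes, which the factor NF-Y binds. RefSeq promoter windows of build GRCm38.p6, from 250 bases before to 50 after a gene's start, were matched for 32 of the 39 genes, with 35 windows in all. No window was matched for Ccna2, Cdc25c, Aurkb, Incenp, Tpx2, Kif20a and Smc4. The CHR was searched as TTTGAA or TTCGAA and the box as CCAAT, on both strands; a match of one can share at most 1 letter, A or T, with a match of the other. A CHR match was present in 26 of the 35 windows (74.3%), against 19.2% of all 32851 windows of the table and 16.5% of those of the genes tested. A CCAAT match was also present in 26 windows (74.3%), against 37.4% of all windows. Both were present in 23 windows of 20 genes (65.7%), against 7.52% of all windows and 6.56% of those of the genes tested. By gene, a CHR match was present in 23 of the 32 and a CCAAT match also in 23. Ect2, Prc1 and Bub3 each had more than 1 window, with both motifs in each. These matches are letters in a window and not shown binding sites.

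The stretches below run from 200 bases before to 30 after the start, with matches of either motif in capitals. Espl1 and Ect2 were called in both lines and hold both motifs, and Bub1 and Bub1b follow by the size of their differences from MEF. Pttg1 was chosen after its values were seen, as the 1 member called between iPS and R1 cells.
Their positions are chr15:102296093-102296322 (plus strand) for Espl1, chr3:27153849-27154078 (minus strand) for Ect2, chr2:127831830-127832059 (minus strand) for Bub1, chr2:118598011-118598240 (plus strand) for Bub1b, chr11:43425952-43426181 (minus strand) for Pttg1, and each is written in the direction of its gene.
Espl1: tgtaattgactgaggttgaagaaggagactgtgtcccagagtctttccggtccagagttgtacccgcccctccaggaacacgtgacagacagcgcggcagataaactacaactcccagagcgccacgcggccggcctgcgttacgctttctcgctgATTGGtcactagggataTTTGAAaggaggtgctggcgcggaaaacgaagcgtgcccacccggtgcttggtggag
Ect2: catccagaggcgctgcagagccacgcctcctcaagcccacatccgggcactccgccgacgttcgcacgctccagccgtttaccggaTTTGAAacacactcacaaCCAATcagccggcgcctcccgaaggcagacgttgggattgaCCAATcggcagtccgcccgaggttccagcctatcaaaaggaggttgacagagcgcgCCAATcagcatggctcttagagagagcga
Bub1: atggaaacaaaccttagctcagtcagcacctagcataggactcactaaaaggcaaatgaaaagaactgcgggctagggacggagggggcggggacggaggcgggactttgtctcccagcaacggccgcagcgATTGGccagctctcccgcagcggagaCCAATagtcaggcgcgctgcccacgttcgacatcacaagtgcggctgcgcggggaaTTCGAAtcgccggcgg
Bub1b: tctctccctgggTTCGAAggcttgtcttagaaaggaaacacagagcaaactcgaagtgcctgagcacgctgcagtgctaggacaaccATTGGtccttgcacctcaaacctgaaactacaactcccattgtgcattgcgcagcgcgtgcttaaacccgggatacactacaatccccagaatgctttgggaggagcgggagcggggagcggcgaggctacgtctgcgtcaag
Pttg1: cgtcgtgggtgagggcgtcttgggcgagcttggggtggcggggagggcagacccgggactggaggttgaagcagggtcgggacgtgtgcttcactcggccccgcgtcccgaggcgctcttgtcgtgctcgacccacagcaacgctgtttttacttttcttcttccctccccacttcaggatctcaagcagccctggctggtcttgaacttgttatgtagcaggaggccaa
A CCAAT match on the opposite strand reads ATTGG. In Espl1 the CCAAT match begins 44 bases before the start and the CHR match 27 bases before it. In Bub1 the 2 CCAAT matches lie before the start and the CHR match after it. The Ect2 stretch holds 3 CCAAT matches, and the Bub1b stretch holds 1. The Pttg1 window holds 0 matches of either motif. It shared this with Birc5, Mad2l1, Ncaph, Nuf2 and Plk4, which went different ways: Mad2l1 was higher in both pluripotent lines, Nuf2 was lower in R1 and Plk4 passed the test in neither. Among the 20 genes with both motifs, 16 were higher in iPS and 17 in R1 cells by adjusted p alone, with median differences of 0.52 and 0.61. Among the other 12 with a window, 6 and 8 were higher, with medians of 0.15 and 0.37. These counts describe the genes and carry no test.

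The genes of anaphase onset held the clearest difference between iPS and R1 cells. Pttg1 encodes securin, which binds and restrains separase until anaphase. Its signals were 146, 162 and 147 in the MEF arrays, 355, 377 and 388 in the R1 arrays, and 120, 119 and 99.0 in the iPS arrays. The R1 arrays were all above the MEF arrays and the iPS arrays all below them, with no overlap between any groups. Pttg1 rose in R1 cells by 1.22 ± 0.07 (SE, adjusted p = 4.39e-07). In iPS cells it was lower than in MEF by adjusted p, with a difference of -0.39 ± 0.07 that was not called (adjusted p = 0.00147). Between the lines it fell by 1.60 ± 0.07 in iPS cells (adjusted p = 1.15e-05), a 3.03-fold lower value on the log2(signal + 16) scale. It was called lower in iPS than in R1 cells under every alternative run, the test against a difference of 1 included.

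Separase, the partner of securin, did not share that pattern. Espl1 signals were 300, 360 and 326 in MEF, 744, 787 and 855 in R1, and 648, 714 and 719 in iPS arrays. The pluripotent arrays were all above the MEF arrays, and the iPS arrays all lay below the R1 arrays. Espl1 rose by 1.04 ± 0.08 in iPS (adjusted p = 1.89e-06) and by 1.24 ± 0.08 in R1 cells (adjusted p = 5.29e-07), and the lines differed by -0.19 ± 0.08, which did not pass (adjusted p = 0.188). Its call in iPS cells was lost without MEF replicate 1 (0.98) and with a pseudocount of 64 (0.95). Cdc20, the activator of the anaphase-promoting complex, had signals of 455, 519 and 449 in MEF, 809, 792 and 820 in R1, and 873, 936 and 917 in iPS arrays. Here the iPS arrays were the highest of all. Cdc20 was higher than in MEF by 0.92 ± 0.06 in iPS (adjusted p = 8.26e-07) and by 0.75 ± 0.06 in R1 cells (adjusted p = 3.12e-06), without being called.

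**Figure D3:**
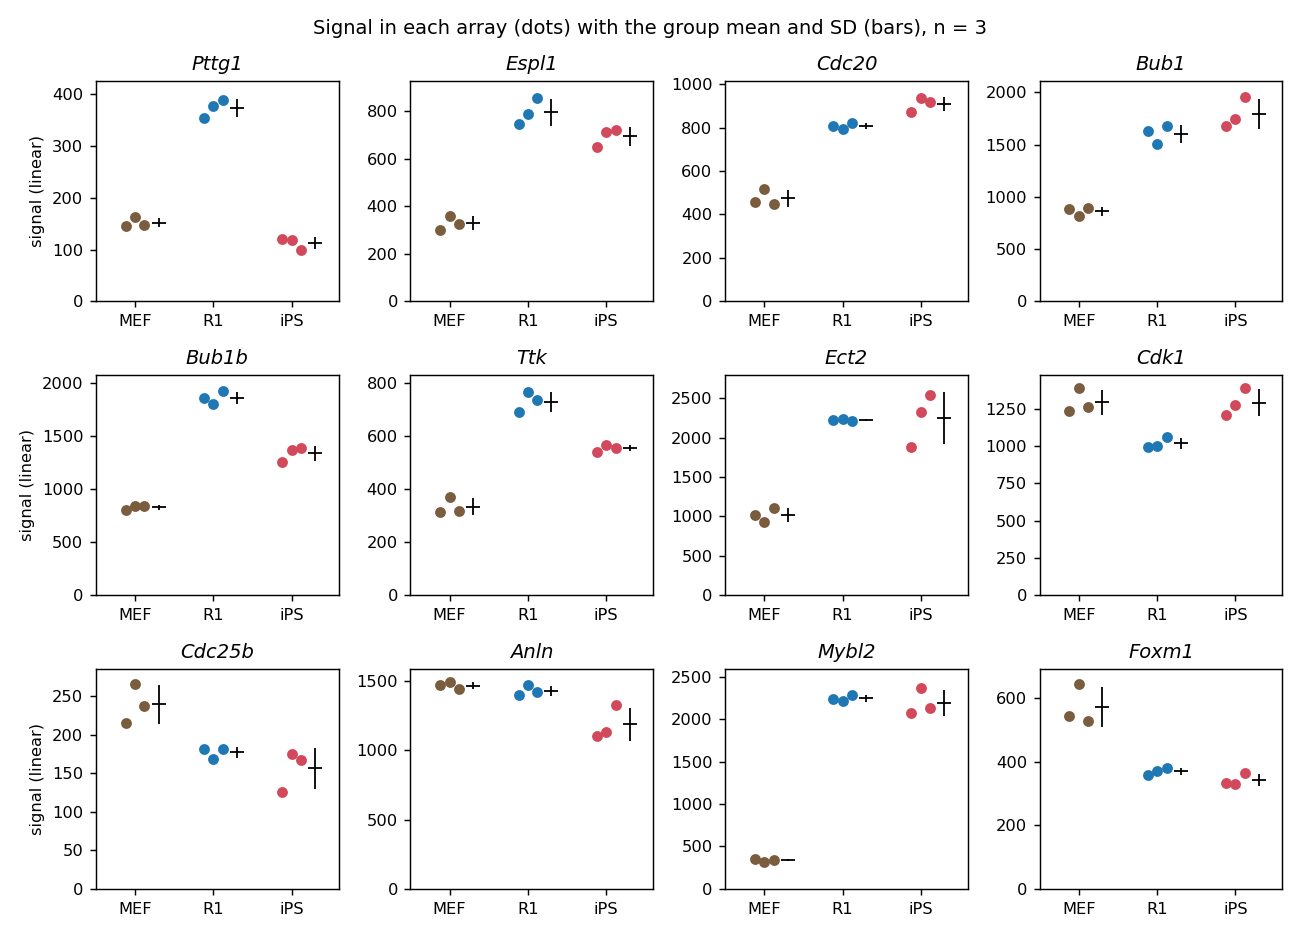
Linear signal in each array (dots) of 10 mitosis genes and of Mybl2 and Foxm1, with the mean and SD of 3 arrays beside them (bars); axes start at 0. Pttg1 is highest in R1 and lowest in iPS arrays, Bub1b and Ttk are intermediate in iPS arrays, and Mybl2 is higher and Foxm1 lower in the pluripotent lines than in MEF.

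Of the 5 spindle checkpoint genes, 4 were higher in iPS and 5 in R1 cells than in MEF by adjusted p, and 2 of them, Bub1b and Ttk, were lower in iPS than in R1 cells. Of all genes, 24.8% were higher in iPS and 25.9% in R1 cells than in MEF, and 4.4% were lower in iPS than in R1 cells. Bub1, a kinetochore kinase that recruits other checkpoint proteins, had signals of 885, 815 and 891 in MEF, 1629, 1510 and 1675 in R1, and 1675, 1746 and 1951 in iPS arrays. It rose in iPS cells by 1.04 ± 0.07 (adjusted p = 9.17e-07), a call lost without MEF replicate 2 (0.9955) or iPS replicate 3 (0.97) and with a pseudocount of 64 (0.9976), and was higher in R1 by 0.88 ± 0.07. Its iPS and R1 arrays overlapped, and the difference of 0.16 ± 0.07 did not pass (adjusted p = 0.244). Bub1b, which encodes BubR1, a part of the mitotic checkpoint complex, read 803, 838 and 843 in MEF, 1859, 1808 and 1924 in R1, and 1252, 1370 and 1389 in iPS arrays. No group overlapped another, and the iPS arrays lay between MEF and R1. Bub1b rose in R1 cells by 1.15 ± 0.05 (adjusted p = 6.6e-08), was higher in iPS cells by 0.68 ± 0.05, and differed between iPS and R1 cells by -0.48 ± 0.05 (adjusted p = 0.000837).

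Ttk, the kinase Mps1 that starts checkpoint signalling, showed the same order. Its signals were 313, 370 and 317 in MEF, 690, 765 and 734 in R1, and 541, 564 and 556 in iPS arrays. It rose in R1 by 1.10 ± 0.07, was higher in iPS by 0.71 ± 0.07, and differed between the lines by -0.39 ± 0.07 (adjusted p = 0.00871). Mad2l1, which encodes the inhibitor Mad2, was higher in R1 by 0.52 ± 0.05 and in iPS cells by 0.67 ± 0.05. It read 1510, 1438 and 1510 in MEF, 2106, 2165 and 2120 in R1, and 2288, 2369 and 2470 in iPS arrays. All iPS arrays exceeded all R1 arrays, yet the difference of 0.16 ± 0.05 did not pass (adjusted p = 0.0722). Bub3, the partner that carries Bub1 and BubR1 to kinetochores, differed least, by 0.13 ± 0.06 in iPS (adjusted p = 0.123) and 0.19 ± 0.06 in R1 cells (adjusted p = 0.0325). The R1 value no longer passed when any 1 of the MEF or R1 arrays was left out (adjusted p from 0.0587 to 0.0901).

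Cdk1, the kinase at the centre of mitotic entry, was 1 of 3 members that were lower in R1 cells than in MEF by adjusted p, with Cdc25b and Nuf2. Cdk1 signals were 1235, 1389 and 1261 in MEF, 996, 1003 and 1060 in R1, and 1209, 1278 and 1389 in iPS arrays. The R1 arrays were below all others, and the MEF and iPS arrays overlapped. Cdk1 was lower in R1 than in MEF (-0.34 ± 0.07, adjusted p = 0.00152), differed by -0.0033 ± 0.07 in iPS cells (adjusted p = 0.977), and was higher in iPS than in R1 cells by 0.34 ± 0.07 (adjusted p = 0.0137; 0.0569 without R1 replicate 1). It was the only 1 of the 39 genes that was higher in iPS than in R1 cells by adjusted p.

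The cyclin partners of Cdk1 that were measured, Ccnb2 and Ccna2, were higher than in MEF in both lines, and Ccnb1 was not analysed. Ccnb2, a B-type cyclin, read 955, 1053 and 1075 in MEF, 1734, 1710 and 1783 in R1, and 1574, 1552 and 1574 in iPS arrays, a difference from MEF of 0.75 ± 0.05 in R1 and 0.60 ± 0.05 in iPS cells. Ccna2, the cyclin of S phase and early mitosis, was higher by 0.26 ± 0.04 in R1 and 0.27 ± 0.04 in iPS cells. The Cdc25 phosphatases split. Cdc25a, which also acts on the kinases of S phase entry, read 910, 879 and 867 in MEF, 1510, 1489 and 1428 in R1, and 1342, 1489 and 1458 in iPS arrays, with differences of 0.73 ± 0.05 in R1 and 0.68 ± 0.05 in iPS cells. Cdc25b, which starts Cdk1 activation at the centrosome, was lower in both lines, with signals of 215, 265 and 237 in MEF, 181, 169 and 181 in R1, and 126, 175 and 168 in iPS arrays. The MEF arrays were above all others, and the differences were -0.40 ± 0.11 in R1 (adjusted p = 0.0128; 0.0523 without MEF replicate 2) and -0.57 ± 0.11 in iPS cells (adjusted p = 0.00156). Cdc25c was higher in R1 by 0.28 ± 0.05 and differed in iPS cells by 0.08 ± 0.05 (adjusted p = 0.248).

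Plk1, Plk4, Aurka and Nek2 are kinases of mitotic entry, centrosomes and spindle poles. Nek2, which acts in centrosome separation, read 526, 541 and 553 in MEF, 1046, 1136 and 1017 in R1, and 755, 923 and 885 in iPS arrays, with no overlap between groups. Its difference from MEF was 0.96 ± 0.08 in R1 and 0.64 ± 0.08 in iPS cells, and it was lower in iPS than in R1 cells (-0.32 ± 0.08, adjusted p = 0.0329). Aurka, the Aurora kinase of the spindle poles, was higher by 0.66 ± 0.08 in R1 and 0.53 ± 0.08 in iPS cells. Plk1, a kinase with roles from mitotic entry to cytokinesis, was higher by only 0.17 ± 0.05 in each line (adjusted p = 0.0193 in R1 and 0.018 in iPS cells). Both values lost the adjusted p without MEF replicate 1 or 3 or replicate 1 or 3 of the line itself (0.051 to 0.0735). Plk4, which controls centriole duplication, differed by -0.06 ± 0.09 in R1 (adjusted p = 0.667) and -0.14 ± 0.09 in iPS cells (adjusted p = 0.274).

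The chromosomal passenger complex, which corrects faulty attachments and guides cytokinesis, was uneven in its measured subunits. Incenp, its scaffold, read 471, 498 and 455 in MEF, 843, 910 and 885 in R1, and 685, 734 and 838 in iPS arrays, and was higher by 0.87 ± 0.07 in R1 and 0.64 ± 0.07 in iPS cells. Aurkb, its kinase, was higher by 0.25 ± 0.08 in R1 (adjusted p = 0.0212; 0.0645 without MEF replicate 2 and 0.0822 without R1 replicate 3) and by 0.28 ± 0.08 in iPS cells (adjusted p = 0.0123). Birc5, which encodes survivin and anchors the complex to centromeres, read 428, 431 and 413 in MEF, 534, 484 and 541 in R1, and 355, 465 and 428 in iPS arrays. It was higher in R1 cells (0.28 ± 0.09, adjusted p = 0.023; 0.0503 to 0.078 without MEF or R1 replicate 1 or 3), while in iPS cells the arrays overlapped those of MEF (-0.04 ± 0.09, adjusted p = 0.804). The difference between the lines was -0.32 ± 0.09 and did not pass (adjusted p = 0.0596).

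The 5 kinetochore and centromere genes differed widely in size, with 3 higher in each line and Nuf2 lower in R1 cells. Of all genes, 24.8% were higher in iPS and 25.9% in R1 cells, and 23% were lower in R1 cells. Cenpf, a large protein of the outer kinetochore, read 340, 367 and 333 in MEF, 671, 653 and 676 in R1, and 622, 657 and 690 in iPS arrays. Both lines lay above MEF and overlapped each other, with differences of 0.91 ± 0.05 in R1 and 0.89 ± 0.05 in iPS cells from MEF and -0.02 ± 0.05 between them. Cenpa, the centromeric histone, was higher by 0.29 ± 0.06 in R1 and 0.26 ± 0.06 in iPS cells. Ndc80 and Nuf2, partners in the complex that grips microtubules, went separate ways. Ndc80 was higher by 0.37 ± 0.06 in R1 and 0.32 ± 0.06 in iPS cells, whereas Nuf2 differed by -0.20 ± 0.07 in R1 (adjusted p = 0.0357; 0.0822 to 0.123 without MEF or R1 replicate 1 or 3, 0.0509 with all probe sets tested, and 0.0535 with the replicate number as a block) and -0.17 ± 0.07 in iPS cells (adjusted p = 0.0786). Cenpe, a kinetochore motor, passed in neither line (0.11 ± 0.08 in R1 and 0.06 ± 0.08 in iPS cells).

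Of the spindle proteins, the motor Kif11, which pushes the poles apart, read 699, 729 and 709 in MEF, 1305, 1418 and 1270 in R1, and 1168, 1243 and 1428 in iPS arrays. Its differences from MEF were 0.89 ± 0.07 in R1 and 0.83 ± 0.07 in iPS cells. Kif2c, a kinesin that shortens microtubules, was higher by 0.66 ± 0.05 in R1 and 0.67 ± 0.05 in iPS cells. Tpx2, an activator of Aurora A, was higher by 0.27 ± 0.05 in R1 and differed in iPS cells by 0.13 ± 0.05 (adjusted p = 0.0776).

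Of the 5 genes of the central spindle and cytokinesis, 3 were higher in each line and Anln was lower in iPS cells. Of all genes, 24.8% were higher in iPS and 25.9% in R1 cells, and 23.2% were lower in iPS cells. Ect2, which activates the GTPase RhoA at the cleavage site, read 1017, 923 and 1105 in MEF, 2226, 2241 and 2210 in R1, and 1885, 2320 and 2539 in iPS arrays. It rose by 1.12 ± 0.10 in R1 (adjusted p = 8.36e-06) and by 1.13 ± 0.10 in iPS cells (adjusted p = 8.7e-06), and the line means differed by 0.0034 ± 0.10 despite the wide iPS spread. Anln, the actin-binding scaffold anillin of the contractile ring, read 1468, 1489 and 1438 in MEF, 1399, 1468 and 1418 in R1, and 1105, 1128 and 1323 in iPS arrays. The iPS arrays lay below all others, with differences of -0.31 ± 0.07 from MEF (adjusted p = 0.00332) and -0.27 ± 0.07 from R1 (adjusted p = 0.0382). Prc1, which bundles the microtubules of the central spindle, passed in neither line (0.03 ± 0.09 in R1 and -0.16 ± 0.09 in iPS cells). Kif20a and Kif23, motors of the central spindle, were higher by 0.44 ± 0.04 and 0.34 ± 0.09 in R1 and by 0.42 ± 0.04 and 0.42 ± 0.09 in iPS cells.

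Genes that shape mitotic chromosomes were higher by modest amounts. Top2a, the topoisomerase that untangles sister DNA, read 1833, 1872 and 1859 in MEF, 2665, 2740 and 2837 in R1, and 2539, 2557 and 2876 in iPS arrays, which gives differences of 0.56 ± 0.06 in R1 and 0.51 ± 0.06 in iPS cells. A second Top2a probe set with a mean signal of only 31.1 differed by 0.39 and 0.25 in the same order. Of the condensin subunits, Smc2 was higher by 0.47 ± 0.04 in R1 and 0.37 ± 0.04 in iPS cells and Ncapd2 by 0.35 ± 0.05 in R1 and 0.46 ± 0.05 in iPS cells. Ncaph was higher by 0.36 ± 0.08 in R1 and 0.24 ± 0.08 in iPS cells (adjusted p = 0.0265; 0.0659 to 0.0989 without MEF replicate 1 or 2 or iPS replicate 2 or 3). Smc4, the ATPase partner of Smc2, passed in neither line (0.09 ± 0.05 in R1 and 0.06 ± 0.05 in iPS cells).

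Set against R1, iPS cells had 7 genes past the adjusted p, of which Pttg1 was called. Of all genes, 4.12% were higher and 4.4% lower by adjusted p. Lower in iPS cells were Pttg1, Bub1b, Ttk, Nek2, Anln and Cdc25c (-0.20 ± 0.05, adjusted p = 0.0417), and Cdk1 was higher. The arrays of both lines did not overlap for 15 of the 39 genes, 11 lower and 4 higher in iPS cells, where 12.1% and 9.84% of all genes were so placed. The 6 lower genes became 3 when MEF replicate 3, any R1 array or iPS replicate 1 was left out, as Nek2, Anln and Cdc25c no longer passed. The other 32 genes did not pass, and 38 of the 39 differences were under 0.5 in size.

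Other genes of the same processes were taken from lists chosen by function, with earlier results of these data known. Their counts are read beside the shares of all genes. Those shares were 24.8% higher, 23.2% lower and 5.08% risen in iPS cells, and 25.9%, 23% and 5.56% in R1 cells. Of 36 other kinetochore, centromere and checkpoint genes, 25 were higher by adjusted p in each line (69.4%), with 4 lower in iPS and 2 in R1 cells. There 4 rose in iPS cells (7 without iPS replicate 1 or with a pseudocount of 1) and 8 in R1 cells (5 with a pseudocount of 64). Among them Cenpm (1.43 ± 0.14 in iPS and 1.30 ± 0.14 in R1) and Cenpp (1.31 ± 0.13 in iPS and 1.38 ± 0.13 in R1) encode centromere proteins, and Sgo2a (1.19 ± 0.11 in iPS and 1.13 ± 0.11 in R1) encodes a shugoshin that protects cohesin. Of 30 other spindle, centrosome and cytokinesis genes, 19 were higher in iPS (63.3%) and 20 in R1 cells (66.7%), 5 and 3 lower, and 4 and 6 rose. With a pseudocount of 64, 2 rose in iPS cells. The kinesins Kif20b (1.23 ± 0.07 in iPS and 1.10 ± 0.07 in R1) and Kif18a (1.19 ± 0.13 in iPS and 1.36 ± 0.13 in R1) were among those that rose. Of 17 other genes listed under G2 and mitotic entry, 10 were higher in iPS (58.8%) and 11 in R1 cells (64.7%), 4 and 3 lower, and 5 and 6 rose. The largest differences were those of the checkpoint kinase Chek2 (2.50 ± 0.08 in iPS and 2.33 ± 0.08 in R1) and of Cdt1 (1.44 ± 0.10 in iPS and 1.65 ± 0.10 in R1). Cdt1 is a replication licensing factor that the list also held.

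Cohesin, its regulators and the remaining condensin subunits included genes with differences above 2 log2 units. Of 19 genes, 15 were higher in each line (78.9%) and 4 rose, while 1 was lower in iPS and 2 in R1 cells. Esco2, an acetyltransferase that establishes cohesion, had signals of 116, 115 and 119 in MEF, 962, 1024 and 929 in R1, and 680, 685 and 771 in iPS arrays. It rose by 2.89 ± 0.06 in R1 and 2.45 ± 0.06 in iPS cells. Cdca5, which encodes sororin, the protector of cohesion, rose by 1.93 ± 0.07 in R1 and 1.84 ± 0.07 in iPS cells. Stag3, a cohesin subunit known from meiosis, read 59.7, 47.2 and 48.2 in MEF, 505, 613 and 468 in R1, and 215, 242 and 258 in iPS arrays. It rose by 3.00 ± 0.11 in R1 and 1.91 ± 0.11 in iPS cells, and fell in iPS against R1 cells (-1.09 ± 0.11, adjusted p = 0.000527), a call lost without R1 replicate 2 (-0.98) and with a pseudocount of 64 (-0.97).

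The anaphase-promoting complex had counts near the shares of genes of mean signal 50 or more. They were above the shares of all genes that were read beside the other lists (24.8% higher and 23.2% lower in iPS, 25.9% and 23% in R1 cells). Of its 18 subunits and regulators, 7 were higher (38.9%) and 6 lower (33.3%) in each line, beside 33.7% and 31.3% in iPS and 35.3% and 30.9% in R1 cells for all genes of mean signal 50 or more, with median differences of 0.07 in iPS and 0.08 in R1 cells. Fbxo5, which encodes the inhibitor Emi1, was the gene that rose (1.32 ± 0.11 in iPS and 1.29 ± 0.11 in R1 cells). Fzr1, which encodes Cdh1, the activator of the complex after anaphase, was higher by 0.36 ± 0.05 in iPS and 0.41 ± 0.05 in R1 cells, below the size of a call.

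Among the transcriptional regulators of mitotic genes, more were above the MEF level than below it by adjusted p. Mybl2, which encodes B-Myb, the MuvB partner that switches on late cell cycle genes, read 350, 322 and 345 in MEF, 2241, 2210 and 2288 in R1, and 2077, 2369 and 2135 in iPS arrays. It rose by 2.64 ± 0.06 in iPS (6.22-fold on the log2(signal + 16) scale) and by 2.67 ± 0.06 in R1 cells (6.38-fold). Foxm1, which acts with B-Myb on the same promoters, read 545, 644 and 526 in MEF, 357, 372 and 380 in R1, and 333, 331 and 365 in iPS arrays. All pluripotent arrays were below all MEF arrays, with differences of -0.71 ± 0.08 in iPS (adjusted p = 2.66e-05) and -0.60 ± 0.08 in R1 cells (adjusted p = 8.06e-05), under the size of a call. Of the 20 measured regulators, 11 were higher in each line (55%), 4 lower in iPS and 3 lower in R1 cells, and Tfdp2, a partner of E2F factors, rose by 1.32 ± 0.07 in iPS and 1.54 ± 0.07 in R1 cells.

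Genes of the phases before mitosis frame these values. Of 20 replication genes, 17 were higher by adjusted p in each line (85%), and 2 were lower in iPS and 1 in R1 cells. Among them 7 rose in iPS and 8 in R1 cells. Their median differences of 0.80 and 0.86 stand beside 0.37 and 0.37 for the mitotic members. In iPS replicate 1 the mean log2 level of the replication genes was 10.13, against 10.26 and 10.28 in the other iPS arrays. Of 14 G1 cyclins, kinases and inhibitors, 2 were higher (14.3%) and 6 lower (42.9%) in each line, 1 rose and 4 fell. Ccne1, the cyclin E1 of the G1 to S transition, rose (1.15 ± 0.06 in iPS and 1.32 ± 0.06 in R1 cells), while Ccnd2, cyclin D2, fell (-2.23 ± 0.13 in iPS and -2.63 ± 0.13 in R1 cells).

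**Figure D4:**
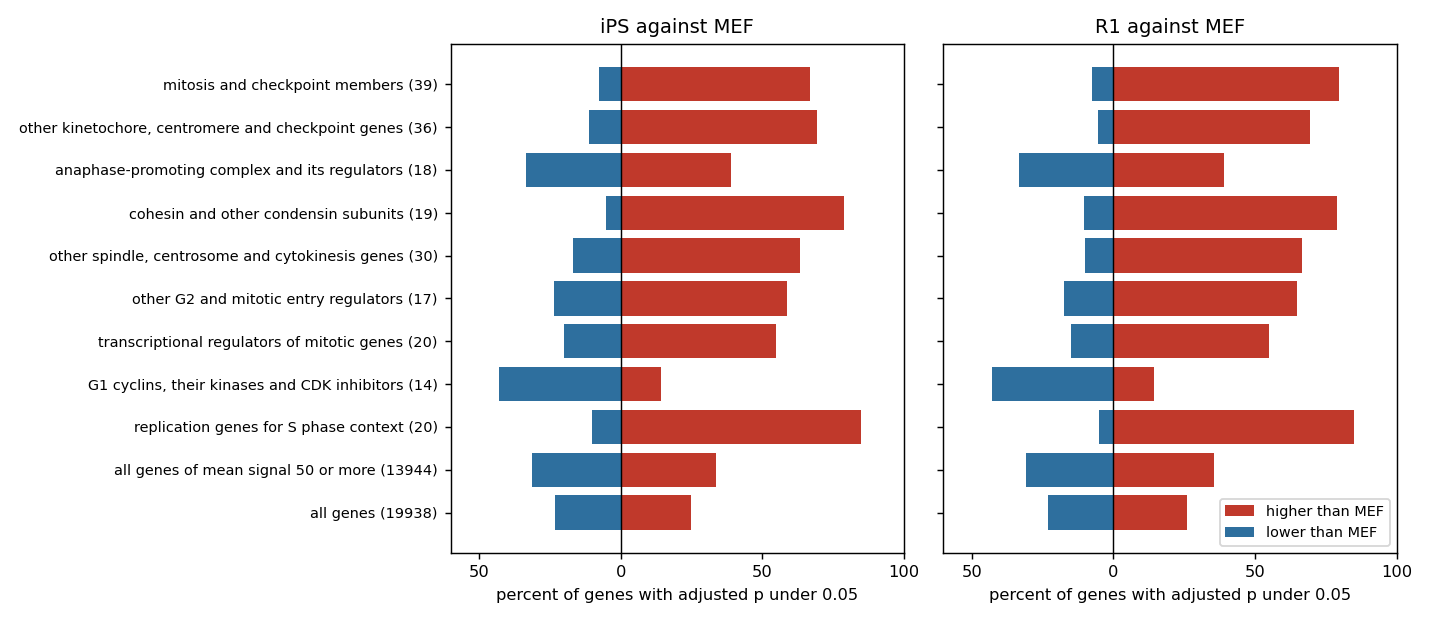
Percent of measured genes with an adjusted p under 0.05 that were higher (right, red) or lower (left, blue) than in MEF, for 39 mitosis genes, 8 other lists and all genes, with the number of genes in parentheses; genes of mean signal 50 or more were tested by themselves. The mitosis genes reach 66.7% higher in iPS and 79.5% in R1 cells, the anaphase-promoting complex 38.9% in both, and all genes 24.8% and 25.9%.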

How the data were processed

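RNA from 9 mouse cell samples, 3 each of MEF, R1 and iPS cells, was extracted with Trizol and labelled with Affymetrix whole-transcript kits, per the labels' protocols. Each probe set has 1 deposited intensity on each array, on a linear scale. GCOS 1.4 is listed in the submitters' processing notes, with no step attached to it. How background was corrected, probes summarized and arrays normalized by the authors is not given in the sources used. Array medians were 78.2 to 83.3, so no further normalization was applied, and the number of arrays limits the precision.

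Of 35557 probe sets, 21789 carried 1 gene symbol in the platform annotation, 1621 several, and 12147 were not listed there. The probe set with the highest mean stood for each of 19938 genes. Differences in log2(signal + 16) were tested with limma 3.58.1 (lmFit and eBayes, R 4.3.3) over all genes and all 9 arrays, with Benjamini-Hochberg adjustment and 6 residual degrees of freedom. Errors of differences are standard errors of this fit.

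On simulated data for iPS against R1 with 19938 genes, the call found 98% of genes changed by 1.25. It found 0% of those changed by 0.4 or 0.8, sizes under its minimum difference of 1. The adjusted p alone found 66% and 98% of these, and it also passed 15 unchanged genes. The changed genes were drawn from bright genes only, and each gene was given the same spread in every group. In the data the members' median SD was 0.10 in iPS and 0.04 in R1 arrays. Only 50 genes were changed per size, a smaller share than the 4.12% higher and 4.4% lower in the data. For these reasons the rates need not hold there. Members and gene lists were chosen with earlier results of these data known. All members may be named, called or not; of each other list, at most the 4 called genes with the largest differences, plus Foxm1, Mybl2 and Fzr1. Alternatives covered normalization, pseudocount, the filter on dim genes, the choice of probe sets, the size threshold, the model of the spread, a replicate block and leaving out each array.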

Additional observations from a re-analysis of the deposited data

Results flagged for a closer look

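Differences between the iPS and R1 lines passed the adjusted p of limma's fit over all genes for 7 of the 39 mitosis genes. Of these, 6 were lower in iPS cells. By the same adjusted p, 4.4% of all genes were lower and 4.12% higher in iPS than in R1 cells. Pttg1 differed by -1.60, Bub1b by -0.48, Ttk by -0.39, Nek2 by -0.32, Anln by -0.27 and Cdc25c by -0.20 in log2(signal + 16). Cdk1 was higher in iPS cells by 0.34. Nek2, Anln and Cdc25c lost the adjusted p when any R1 array was left out, and Cdk1 lost it without R1 replicate 1 (0.0569). The effects of both lines share the MEF arrays, and the direct difference between the lines is what was tested.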

How the results depend on the processing

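With 3 arrays per group and no detection calls, small differences rest on few arrays. Of 1610 checks of member differences past the adjusted p, 69 lost it and 0 changed sign. The checks with another minimum difference reused the main fit, so they could neither lose the adjusted p nor change sign. Losses in the test against a difference of 1 were not counted among the 69, and that test could not change a sign. Several other checks left a difference as it was, so its sign was fixed. These were the filter on dim genes, the test of all probe sets, the intensity trend and the replicate block. The same holds for fitting only the 2 groups compared and for leaving out an array of the other group. Averaging the probe sets of a gene could alter only Top2a. The 0 sign changes therefore rest on the remaining checks. The counts of called genes followed the size threshold and the pseudocount. Against MEF, called higher members in iPS and R1 cells numbered 26 and 31 with no minimum difference, 16 and 17 with a minimum of 0.5, and 0 and 0 in a test against a difference of 1, and 1 in iPS cells with a pseudocount of 64. Called lower members numbered 3 and 3 with no minimum, and 1 in iPS cells with a minimum of 0.5. Between iPS and R1 cells, no minimum gave 1 called higher and 6 called lower. By adjusted p alone, members higher in iPS than in R1 cells numbered 3 with quantile normalization, 2 with a pseudocount of 64, 2 with an intensity trend and 3 with array weights. Those lower numbered 3 with array medians aligned, 3 with all probe sets tested and 3 with only the 2 groups compared. The R1 median against MEF was 0.45 with quantile normalization and 0.34 with a pseudocount of 64. The cause of these shifts was not tested.

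Leaving out 1 array gave medians of 0.32 to 0.39 for iPS against MEF, 0.35 to 0.42 for R1 against MEF and -0.13 to -0.01 for iPS against R1. Called higher members against MEF were 2 to 3 in iPS and 5 to 5 in R1 cells. By adjusted p alone, 24 to 26 were higher in iPS and 27 to 31 in R1 cells, and 0 to 1 were higher and 3 to 5 lower in iPS than in R1 cells.

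Same-numbered arrays correlated in their deviations by -0.08 to 0.24, and unlike-numbered arrays of different groups by -0.23 to 0.20. The highest values were those among the replicate 1 arrays (MEF and R1 0.21, MEF and iPS 0.23, R1 and iPS 0.24). MEF replicate 2 also went with R1 replicate 2 (0.20) and iPS replicate 3 (0.20), and these with each other (0.19). The replicate numbers were not taken to pair the samples in the main fit, and what such arrays share was not tested. With the replicate number as a block, 3 members were called higher in iPS and 5 in R1 cells against MEF and 1 lower between iPS and R1, and 5 instead of 6 were lower there by adjusted p alone. Members lower in R1 than in MEF by adjusted p alone became 2 instead of 3 under the block, as Nuf2 no longer passed (adjusted p = 0.0535).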
